A study of Mus musculus with 24 samples.

Results

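The zinc finger protein genes described here are the mouse genes whose symbol is Zfp followed by a number and whose mean level over the 12 input libraries was at least 2 FPKM (fragments per kilobase of transcript, scaled to library size). Of 370 such gene rows in the expression table, 193 reached this level, out of 32884 genes in all and 11223 genes at or above the same level. The remaining 177 rows lay below it. The minimum fell between Zfp710 (1.97) and Zfp182 (2.00, just under it) on one side and Zfp939 (2.03) and Zfp961 (2.04) on the other. A level chose these genes, so their being expressed is not a result.

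The samples were spinal cord of mice after spared nerve injury, in which the common peroneal and tibial nerves were tied and cut, and of mice whose sciatic nerve and branches were only exposed (sham). Injured cord was taken on day 3, day 7 or day 14, and sham is labelled day 3, so that days 7 and 14 have no sham of their own time. Each of the 4 groups had 3 replicates, each with an input RNA library and a library enriched with an antibody against N6-methyladenosine (m6A), 24 samples in all. The labels give no strain, sex or age, and do not say whether a replicate was 1 mouse or whether the replicates of a group came from separate mice, so the p-values may measure technical spread only. Neurons, astrocytes and microglia were all marked in every input library (Snap25, Rbfox3 and Syt1 summed to 354.5 to 422.5 FPKM), while the sensory ganglion markers Scn10a, Trpv1 and Avil summed to at most 0.212 FPKM. The liver markers Alb and Apoa1 summed to between 0.117 and 104.8 FPKM, and differed within a group (0.390 to 104.8 on day 3). The muscle markers Acta1, Ckm and Myh4 summed to between 0.305 and 7.27 FPKM.

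Most proteins of this family carry tandem C2H2 zinc fingers, each of which folds around a zinc ion and can contact a few bases of DNA. Many also carry a KRAB domain, through which the cofactor Trim28 and the histone methyltransferase Setdb1 are brought to chromatin, and much of this KRAB group is known for silencing retroelements and for keeping imprints. Others are ordinary transcription factors, and a few bind RNA or act on ribosomes. m6A is a methyl mark on mRNA that is laid down mostly near stop codons, in 3′ UTRs and in long internal exons, and that affects mRNA stability and translation. In the deposited annotation 76 of the 193 genes carried the KEGG ortholog label of KRAB zinc finger proteins and 117 did not. The label is incomplete (Zfp57 and Zfp445, for example, are KRAB proteins and lack it), and how many more lack it was not counted. The 117 others are therefore genes without the label, a mixture that includes KRAB genes. Comparisons of the 76 with the 117 are comparisons by label only. This division was chosen after the tables had been seen. Near-identical paralogs of the KRAB group can share reads, which leaves the levels of single members uncertain.

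The consensus of m6A sites has GGAC as its most frequent core. RefSeq windows on GRCm38.p6 around the start of transcription were at hand for 159 of the genes (200 windows). Of these, 71 had their first 50 transcribed bases wholly inside an m6A peak of the same gene in at least 1 list, and 17 in all 4 lists. The 5 of those 17 that hold GGAC are shown, since they are the places where a recurrent peak and a sequence could be set side by side. Each line gives 24 transcribed bases, 5′ to 3′, with each GGAC in capitals.

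Zfp91, chr19:12796082-12796105, minus strand: atccggcaacGGACagggcctttt
Zfp146, chr7:30169710-30169733, minus strand: ggcagcgagtGGACattttggtct
Zfp772, chr7:7209975-7209998, minus strand: GGACgctgggcgGGACtttcggct
Zfp691, chr4:119173829-119173852, minus strand: ccaacctcatGGACatctctgaac
Zfp488, chr14:33978741-33978764, minus strand: aGGACccgcagctggtacactcaa

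GGAC stood in 36 of the 200 Zfp windows (18%) and in 18.9% of all 32851 RefSeq windows. Both strands were searched, and its reverse complement, GTCC, stood in 64 Zfp windows (32%) against 17.4% of all windows. Among the 71 windows inside a peak in at least 1 list, GGAC stood in 13 and GTCC in 23. Among the 17 windows inside a peak in all 4 lists, GGAC stood in 5 and GTCC in 3. These are counts of letters, windows of 1 gene can overlap, and a peak is far longer than the motif and does not place the methylated base.

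The median of the 193 genes was 3.78 FPKM, against 7.13 for all genes at or above the same minimum, and 56 genes reached 5 FPKM and 11 reached 10. The KRAB-labelled genes had a median of 3.34, and 1 of them, Zfp612 (12.6), reached 10. The other 117 had a median of 4.17. The 8 highest were Zfp706 (26.0), Zfp106 (23.8), Zfp445 (23.4), Zfp91 (19.2), Zfp740 (18.4), Zfp664 (16.6), Zfp207 (15.6) and Zfp365 (13.7). Zfp106 is an RNA-binding protein needed by motor neurons and muscle in mice, Zfp445 keeps imprints together with Zfp57, Zfp91 is an E3 ubiquitin ligase, Zfp207 works at the mitotic spindle and Zfp365 is a partner of Disc1 in neurons.

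Library 3 of day 7 and library 3 of sham stood apart from the other 10 input libraries. Zfp106 measured 41.2 in the former and 39.8 in the latter, and 19.2 to 21.5 in the other 10. Zfp91 measured 37.2 and 37.1, and 14.6 to 16.4 in the other 10. Both libraries thus read at about the same high level for each gene, far outside the range of the rest.

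Zfp692 went the other way, at 7.65 and 5.70 in these libraries and 13.3 to 16.0 in the others, as did Zfp598, the E3 ligase that marks collided ribosomes, at 6.29 and 7.13 against 12.7 to 14.9. Zfp24, which oligodendrocytes need to mature, measured 11.9 and 12.7 in them and 4.97 to 5.82 elsewhere. The transcription factor Zfp148 measured 7.93 and 8.18 in them and 3.64 to 4.03 elsewhere. Zfp703 was at 0.120 in day 7 library 3 and between 3.62 and 4.41 in the other 11.

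Summed over the 193 genes, the level was 891 to 918 FPKM in 10 libraries, or 0.449 to 0.459% of all FPKM, and 1026 (0.565%) and 1057 (0.586%) in these. Against the mean of the other libraries of their group, the median Zfp gene was higher by 0.18 (day 7) and 0.19 (sham) on the log2 scale. The shift was 0.28 and 0.31 for the KRAB-labelled genes and 0.10 and 0.06 for the other Zfp genes, while the median of all genes was -0.04 and -0.06. In both libraries 22 Zfp genes (11.4%) were at least 1.5-fold higher, against 8.11% of all genes, and 10 (5.18%) at least 1.5-fold lower, against 14.4%. None of the 10 carried the KRAB label. The labels name nothing that sets these libraries apart, so the counts of Zfp genes that passed and the changes of those genes are given with all 12 libraries and without these. The other genes listed for a small unadjusted p, and the counts of values that do not overlap, are given with all 12 libraries only, save Zfp969.

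**Figure D1:**
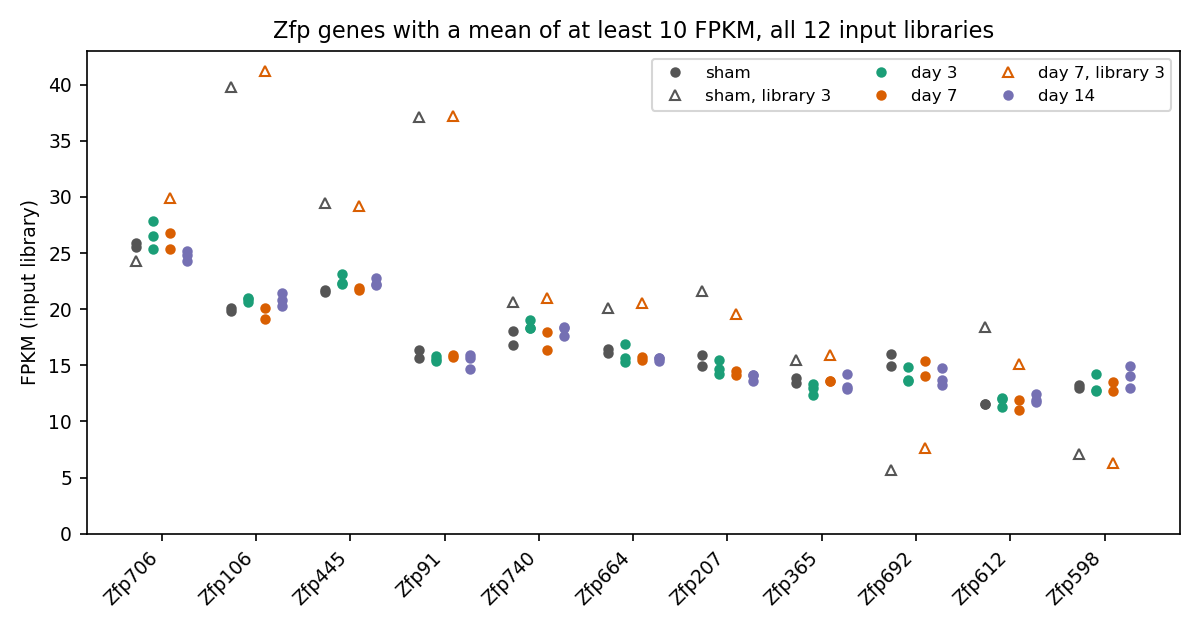
Level in FPKM of the 11 Zfp genes with a mean of at least 10 FPKM in each of the 12 input libraries, 1 symbol per library, coloured by group, with open triangles for library 3 of sham and library 3 of day 7. The filled points of a gene lie close together in all 4 groups, and the triangles leave them upward for Zfp106 and Zfp91 and downward for Zfp692 and Zfp598.

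The question put to the input libraries was whether the RNA of these genes differed between injured and sham cord. With all 12 libraries, none of the 193 genes passed an adjusted p of 0.05 (limma, Benjamini-Hochberg over 15564 genes) on any day. Of all genes tested, 0.0578% passed on day 3, 0.103% on day 7 and 0.0514% on day 14. Counts at an unadjusted p below 0.05 were 5, 2 and 6 Zfp genes (2.59, 1.04 and 3.11%), against 6.24, 2.53 and 4.92% of all genes tested. The median log2 fold change of the 193 was -0.05, -0.02 and -0.04, and that of all genes tested 0.03, 0.01 and 0.03. Intervals were wide with the deviating libraries in, but for 185 genes on day 3, 192 on day 7 and 186 on day 14 the whole 95% interval lay inside a 2-fold change either way. Between injured days no Zfp gene passed either, against 0.0129% of all genes for day 7 against day 3, 0.0321% for day 14 against day 7 and 0.0129% for day 14 against day 3. At an unadjusted p below 0.05 (limma) these contrasts had 8, 3 and 6 Zfp genes (4.145, 1.554 and 3.109%), against 4.05, 4.46 and 1.75% of all genes. In bulk cord, fewer cells of a type and less RNA per cell cannot be told apart. Summed microglial markers (Cx3cr1, Tmem119 and P2ry12) were 16.8 to 18.7 FPKM in sham and 20.2 to 28.2 after injury, and the blood markers Hbb-bs and Alas2 were 65.1 to 111 in sham and 122 to 235 after injury. The astrocyte markers Aqp4, Gfap and Slc1a3 summed to 415 to 447 in sham, 451 to 454 on day 3, 488 to 550 on day 7 and 381.9 to 391.9 on day 14. The motor neuron markers Chat, Slc5a7 and Isl1 summed to 19.97 to 23.20 in sham and 14.4 to 19.5 after injury, and the sums did not overlap. The part of these markers in the values of the Zfp genes was not tested.

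Without the deviating libraries the spread shrank, and 7 Zfp genes passed against sham. On day 3, 4 passed (2.07%, background 7.07%), of which 1 rose (background 4.01%) and 3 fell (background 3.06%). On day 7 none passed (background 1.11%), and 18 had an unadjusted p below 0.05 (limma; 9.33%, background 12.9%). On day 14, 3 passed (1.55%, background 4.71%), of which 1 rose (background 2.42%) and 2 fell (background 2.29%). The share was below that of all genes on each day, which was not tested. Median log2 fold changes were 0.01, -0.00 and 0.02, and the 95% interval lay within 0.5 log2 units of zero for 190, 191 and 190 of the 193 genes.

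The gene with the smallest adjusted p among those that fell on day 3 in the 10 libraries was Zfp579. It measured 6.33 and 5.98 in sham libraries 1 and 2 and 4.64, 5.00 and 4.41 on day 3, a log2 fold change of -0.36 ± 0.07 (SE; limma adjusted p = 0.018). Sham library 3, left out there, measured 2.75, below every day 3 value, and with all 12 libraries the change was -0.02 ± 0.30 (limma adjusted p = 0.98).

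Zfp57, the KRAB protein that maintains methylation of imprinted regions, measured 3.11, 2.89 and 2.53 in sham, 2.49, 2.49 and 2.37 on day 3, 2.42, 2.48 and 2.59 on day 7 and 2.86, 2.86 and 2.77 on day 14. All day 3 values lay below all sham values, and the day 14 values lay inside the sham range. The day 3 change was -0.25 ± 0.05 without the deviating libraries (limma adjusted p = 0.020) and -0.18 ± 0.08 with all 12 (limma adjusted p = 0.69). On day 7 it was the smallest adjusted p of the Zfp genes in the 10 libraries, at 0.081 (limma).

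Zfp384, a transcription factor of matrix metalloproteinase genes, measured 6.20, 6.14 and 4.97 in sham and 5.52, 5.27 and 5.10 on day 3. Sham library 3 lay below all day 3 values. Without it and day 7 library 3 the change was -0.20 ± 0.05 (limma adjusted p = 0.039), and with all 12 libraries it was -0.11 ± 0.09 (limma adjusted p = 0.69).

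The gene that rose on day 3 was Zfp383, a KRAB-labelled gene of the chromosome 7 cluster described further on. It measured 3.99, 4.15 and 4.57 in sham and 4.83, 4.52 and 4.82 on day 3, which overlapped, and its change without the deviating libraries was 0.19 ± 0.05 (limma adjusted p = 0.043). With all 12 it was 0.14 ± 0.08 (limma adjusted p = 0.69).

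On day 14 Zfp467, a factor that promotes fat cell formation from marrow stroma in mice, measured 4.08, 3.71 and 3.26 in sham and 5.27, 4.89 and 4.87 after injury. All day 14 values lay above all sham values. The change was 0.33 ± 0.07 without the deviating libraries (limma adjusted p = 0.035) and 0.40 ± 0.18 with all 12 (limma adjusted p = 0.70).

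Zfp760, a KRAB-labelled gene, measured 2.87, 2.95 and 2.76 in sham and 2.19, 2.49 and 2.30 on day 14, again without overlap. It fell by 0.27 on the log2 scale (SE 0.06) without the deviating libraries (limma adjusted p = 0.045), and its value with all 12 was -0.25 ± 0.07 (limma adjusted p = 0.70). Zfp329 measured 4.27, 4.23 and 5.94 in sham and 3.52, 3.65 and 3.35 on day 14. It fell by 0.25 on the log2 scale (SE 0.05) without the deviating libraries (limma adjusted p = 0.030). With all 12 the value was -0.39 ± 0.18 (limma adjusted p = 0.70), and sham library 3 was the highest of the sham values.

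One gene passed between injured days. Zfp651 measured 10.4, 10.6 and 8.36 on day 7 and 9.46, 9.43 and 9.52 on day 14, so that day 7 library 3 lay on the other side of day 14 from its mates. Without the deviating libraries it was lower on day 14 by -0.15 ± 0.03 (limma adjusted p = 0.046), 1 of 193 genes (0.518%) against 2.69% of all genes in either direction and 1.61% lower. With all 12 the value was -0.04 ± 0.10 (limma adjusted p = 0.87). Day 7 against day 3 and day 14 against day 3 had none, against 2.04 and 1.99% of all genes. At an unadjusted p below 0.05 (limma) these contrasts had 22 and 24 Zfp genes (11.4 and 12.4%), against 15.2 and 15.3% of all genes.

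The gene with the highest day 3 value relative to sham was Zfp969, a KRAB-labelled gene on chromosome 2. It measured 2.12, 2.42 and 2.53 in sham, 3.55, 3.55 and 3.90 on day 3, 2.42, 2.21 and 3.26 on day 7 and 2.91, 2.32 and 3.79 on day 14. Day 3 did not overlap with sham. The log2 fold change was 0.55 ± 0.16, with a limma adjusted p of 0.57, and without the deviating libraries it was 0.59 ± 0.15 (limma adjusted p = 0.051). Other genes with the smallest unadjusted p in the 12 libraries were Zfp772 (0.24) and Zfp641 (0.16) above sham and Zfp462 (-0.20) and Zfp507 (-0.33) below it on day 3, Zfp105 (0.23), Zfp825 (0.19) and Zfp512 (0.15) above and Zfp212 (-0.31) and Zfp711 (-0.21) below on day 7, and Zfp105 (0.27) and Zfp14 (0.18) above and Zfp983 (-0.24) and Zfp958 (-0.22) below on day 14. All had a limma adjusted p of at least 0.69.

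With all 12 libraries, values of the 3 libraries of an injured group that did not overlap with the 3 sham libraries were found for 30 Zfp genes on day 3 (15.5%, background 23.1% of genes at or above 2 FPKM). Of these, 14 lay above sham (background 15.4%) and 16 below (background 7.73%). On day 7 there were 5 (2.59%, background 3.47%), 3 above and 2 below (background 2.16 and 1.31%). On day 14 there were 28 (14.5%, background 20.2%), 10 above and 18 below (background 14.0 and 6.17%).

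**Figure D2:**
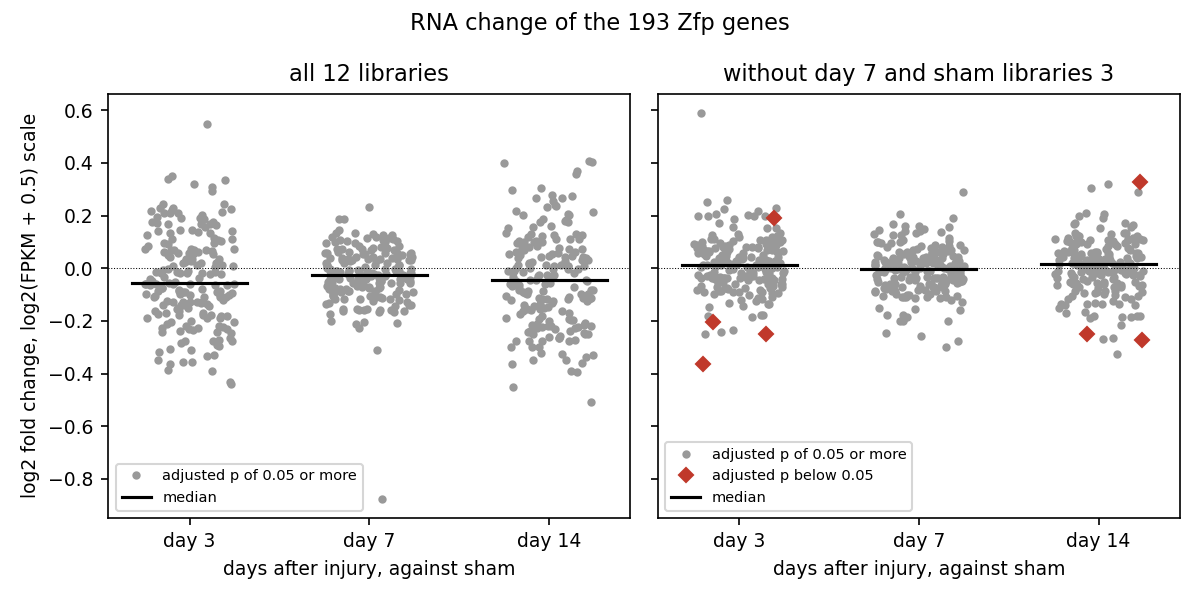
Log2 fold change of each of the 193 Zfp genes on each injured day against sham, on the log2(FPKM + 0.5) scale, with all 12 libraries (left) and without library 3 of day 7 and library 3 of sham (right). Red diamonds passed an adjusted p of 0.05 (limma), grey points did not, and black lines are medians. On the left no gene passed and the medians are -0.05, -0.02 and -0.04, and the lowest day 7 point is Zfp703, while on the right 4 genes passed on day 3, none on day 7 and 3 on day 14.

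By known role, none of the Zfp genes in 4 lists passed with all 12 libraries (limma). At an unadjusted p below 0.05 the lists had Zfp462 and Zfp57, both on day 3, and no other Zfp gene against sham. The list of RNA-binding and translation genes held 9 of the 193 among its 11 names, including Zfp638, which acts in splicing, Zfp326, a subunit of a complex that links transcription to splicing, Zfp346, which binds double-stranded RNA, and Zfp622 and Zfp593, which help mature the large ribosomal subunit. Their median log2 fold change was -0.06 on day 3, -0.05 on day 7 and -0.10 on day 14 with all 12 libraries. Without the deviating libraries it was 0.059, -0.0026 and 0.021, so that the sign turned on days 3 and 14. The neural and glial list held 10 of 12 (Zfp24, Zfp488, Zfp521, Zfp423, Zfp536, Zfp703, Zfp335, Zfp462, Zfp365 and Zfp292), with medians of -0.13, -0.05 and -0.10. Without the deviating libraries these were -0.076, 0.030 and 0.0028, and the sign turned on days 7 and 14. Zfp488, which works with Olig2 in oligodendrocytes, measured 2.42, 2.02 and 2.34 in sham, 1.59, 2.04 and 2.08 on day 3, 2.09, 2.49 and 2.15 on day 7 and 1.77, 1.96 and 2.01 on day 14. Its day 14 values lay below all sham values, while its day 7 values overlapped with sham.

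The imprinting and retroelement list held 5 of 9 (Zfp57, Zfp445, Zfp809, Zfp932 and Zfp961), with medians of -0.13, 0.03 and -0.10 with all 12 libraries and -0.056, 0.0093 and -0.064 without the deviating ones. Zfp57 was its only member to pass without the deviating libraries. Zfp809, which recognises the primer binding site of murine leukaemia virus, measured 2.47 to 3.48 in 10 libraries and 5.50 and 5.14 in the deviating ones. The transcription and chromatin list held 12 of 14, with medians of -0.12, -0.01 and -0.12. Without the deviating libraries these were -0.032, 0.014 and 0.022, and the sign turned on days 7 and 14. Zfp384 was its only member to pass without those libraries. A further list held 20 genes of KRAB cofactors and of chromatin silencing more widely, of which 19 were tested. None passed against sham on any day with or without the deviating libraries (limma). With all 12 libraries none had an unadjusted p below 0.05 against sham (limma). Trim28 (mean 19.1 FPKM) had log2 fold changes of 0.17, -0.07 and 0.24 with all 12 and -0.03, -0.05 and 0.04 without the deviating libraries. Of 8 immediate early genes tested, only Atf3 passed against sham with all 12 libraries. It rose on each day, by 2.89, 3.33 and 2.79 log2 units (limma adjusted p of at most 1.47e-05). Without the deviating libraries Atf3 passed on each day, and Jun passed as well on day 7 (limma).

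Chromosome 7 held 46 of the 193 (23.8%), 22 of them KRAB-labelled, against 7.26% of all genes at or above 2 FPKM. Chromosome 17 held 24 (12.4%) against 4.82%. Taking members no more than 200000 bases apart as neighbours, 90 genes (46.6%) stood in 30 runs, among them 53 of the 76 KRAB-labelled genes (69.7%) and 37 of the 117 others (31.6%). The longest run, chr7:29768552-30169750, held 12 genes, of which 9 were KRAB-labelled: Zfp84, Zfp30, Zfp790, Zfp420, Zfp27, Zfp383, Zfp74, Zfp14, Zfp566, Zfp260, Zfp382 and Zfp146. A run of 6, all KRAB-labelled, lay at chr17:32765496-33033402 (Zfp871, Zfp811, Zfp799, Zfp870, Zfp952 and Zfp763).

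The second question was where m6A lay on these RNAs and whether the groups differed. One peak list was deposited per group, so peaks have no replicates, no comparison of lists was tested, and values are given side by side. Sham and day 7 are also the groups with a deviating input library, and whether that library entered their lists is not given. At least 1 peak was listed for 180 of the 193 genes in sham (93.3%), 190 on day 3 (98.4%), 188 on day 7 (97.4%) and 189 on day 14 (97.9%). Of all genes at or above 2 FPKM, 77.4, 89.0, 79.1 and 88.7% had a peak. The share was higher for the Zfp genes at every level of RNA: between 2 and 3 FPKM it was 94.6% in sham against 75.5%, between 3 and 5 FPKM 95.1 against 78.7%, between 5 and 10 FPKM 91.1 against 81.5%, and from 10 FPKM up 81.8 against 74.3%.

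**Figure D3:**
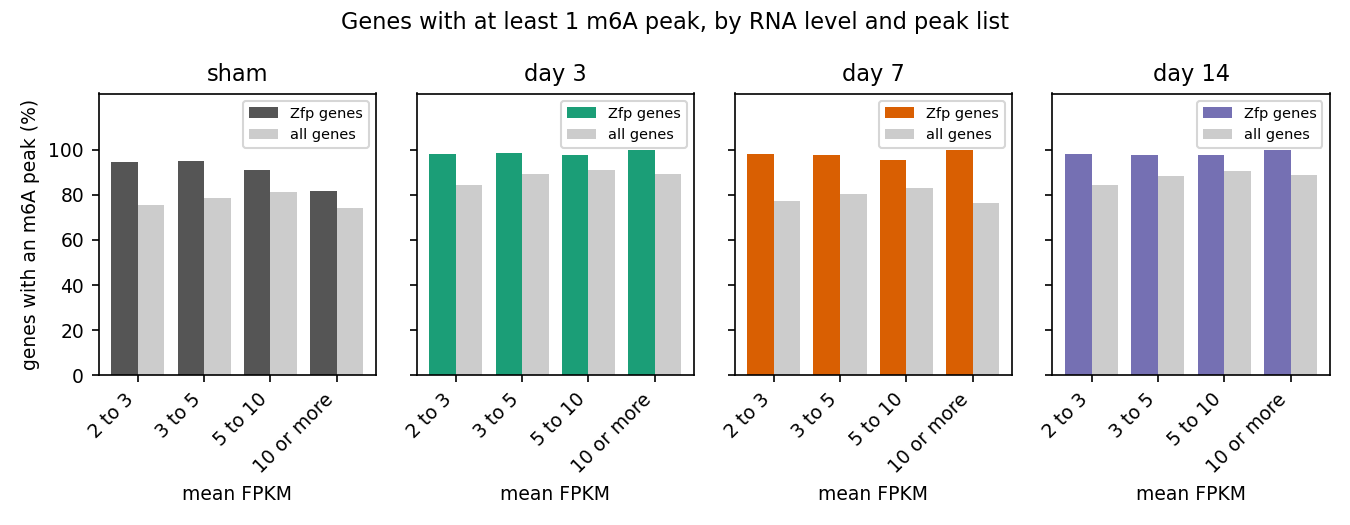
Share of genes with at least 1 m6A peak, in percent, by mean FPKM and by peak list, for Zfp genes (coloured bars) and all genes of the same level (grey bars). The coloured bar is higher than its grey neighbour in all 16 pairs, and the lowest coloured bar, 81.8%, stands for 9 of 11 genes in sham.

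The Zfp genes held 531 peaks in sham, 545 on day 3, 483 on day 7 and 535 on day 14, or 2.75, 2.82, 2.50 and 2.77 per gene, against 1.67, 2.09, 1.68 and 2.03 per gene over all genes. The peaks covered 1449, 1957, 1706 and 1936 exonic bases per Zfp gene, against 721, 1045, 814 and 1016. At least 3 peaks were listed for 52.3, 49.2, 42.0 and 48.2% of the Zfp genes, and for 23.2, 31.7, 22.6 and 30.5% of all genes. In a stricter list (fold enrichment of at least 2 and p of at most 1e-05) the shares were 42.0, 24.9, 29.0 and 30.6% against 15.4, 13.3, 12.8 and 13.8%. Median fold enrichment over input, the authors' value, was 6.09, 4.82, 5.51 and 5.01, against 5.02, 3.55, 4.36 and 3.67.

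The genes with most peaks over the 4 lists were Zfp462 and Zfp536, with 34 each, and Zfp318, with 32. Zfp462, a chromatin regulator, had 7, 9, 8 and 10 in sham and on days 3, 7 and 14. Zfp536, a repressor of neuronal differentiation, had 8, 9, 6 and 11. Zfp318 had 9, 9, 7 and 7. These were followed by Zfp316 and Zfp644 (26 each), Zfp629 (25), Zfp646 (24) and Zfp532, Zfp574, Zfp652 and Zfp704 (23 each). None of the 8 highest expressed genes was among these. Zfp664 had 20 peaks in all, Zfp106 18, Zfp91 and Zfp445 16 each, Zfp365 and Zfp740 8 each, Zfp706 5 and Zfp207 3, and the median of the 193 genes was 10.

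By annotated place, 48.8% of the Zfp peaks in sham lay in the 3′ UTR, 18.8% in the 5′ UTR and 32.4% in another exon, against 57.8, 18.9 and 23.3% of the peaks of all genes. The share in another exon was 19.6% on day 3, 25.9% on day 7 and 21.7% on day 14, against 18.7, 22.4 and 18.3% for all genes. KRAB-labelled genes had 9.95% of their sham peaks in the 5′ UTR and 57.1% in the 3′ UTR, and the other Zfp genes 23.8 and 44.1%. The deposited place refers to the transcript nearest the peak, which belonged to the same gene for 80.9 to 83.2% of the Zfp peaks. Of the peaks placed in another exon of their own gene, the last exon held 73.6% for the KRAB-labelled genes in sham (63.0 to 78.1% on the injured days), 34.7% for the other Zfp genes and 31.9% for all genes. In genes of the KRAB type the last exon usually encodes the whole array of fingers.

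**Figure D4:**
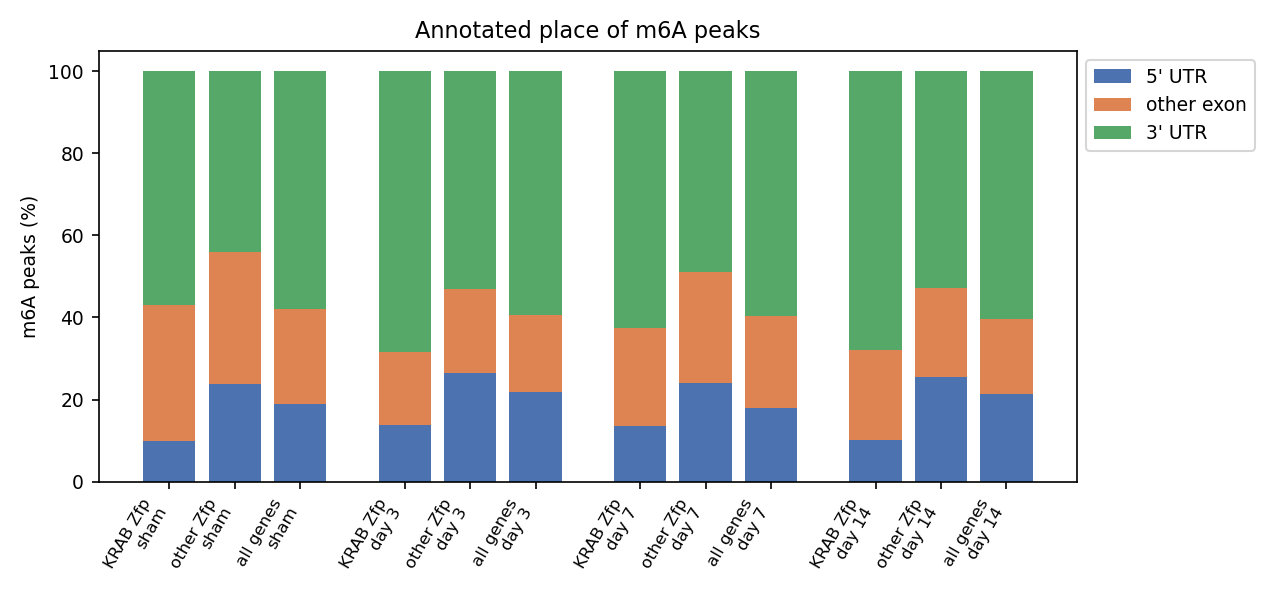
Annotated place of m6A peaks, in percent of peaks, in the 4 lists for KRAB-labelled Zfp genes, other Zfp genes and all genes of at least 2 FPKM. In each list the KRAB-labelled genes have the smallest 5′ UTR share (9.95% in sham against 23.8% for the other Zfp genes) and the largest 3′ UTR share but for sham, where all genes reach 57.8% against 57.1%.

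A peak was listed in all 4 lists for 180 genes (93.3%), against 73.5% of all genes, and no Zfp gene had one in sham only. A peak on all 3 injured days and none in sham was listed for 6 genes (3.11%, against 4.23% of all genes): Zfp938, Zfp395, Zfp692, Zfp410, Zfp524 and Zfp207. Their highest fold enrichment per list was between 1.53 and 8.45. Zfp207 had a single 3′ UTR peak at 2.24, 2.08 and 2.71 on days 3, 7 and 14, and Zfp410, an activator of Chd4, peaked at 2.58, 1.54 and 2.45. The injured lists were also longer, at 40195, 34136 and 38655 peaks against 32669 in sham, and the part of this in the 6 genes was not tested. Sham and day 7, the groups with a deviating input library, had the shorter lists. They also had the lower shares of all genes with a peak, at 77.4 and 79.1% against 89.0% on day 3 and 88.7% on day 14. The part of those libraries in the peak differences was not tested.

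No peak was listed in any group for Zfp969 and Zfp971. Both lie at the end of chromosome 2, as do Zfp970, with 2, 1, 1 and 1 peaks, and Zfp931, with 0, 1, 0 and 2. Zfp969 measured 2.12 to 3.90 FPKM and Zfp971 3.30 to 4.19 in the input libraries. Partial lists were found for Zfp414, Zfp512 and Zfp931, each with a peak on days 3 and 14 alone, for Zfp9 on days 3 and 7, and for Zfp346 on day 7 alone.

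A sham peak was counted as shared when it overlapped reciprocally by at least 50% with a peak of the same gene in each injured list. This held for 193 of the 531 sham peaks (36.3%), in 132 genes (68.4%), against 42.8% of the sham peaks of all genes, in 52.3% of genes. With 1 shared base as the condition, it held for 451 sham peaks (84.9%), in 180 genes (93.3%), against 81.2% of the sham peaks of all genes, in 71.7% of genes. At the 193 shared places the median fold enrichment was 8.84 in sham, 6.81 on day 3, 7.44 on day 7 and 7.20 on day 14. The median log2 ratio to sham was -0.32, -0.19 and -0.20, against -0.29, -0.21 and -0.23 over 8012 shared places of all genes. The log2 ratio was -1 or less at 20, 13 and 17 places (10.4, 6.74 and 8.81%), against 9.95, 6.54 and 8.38% for all genes. It was 1 or more at 9, 4 and 6 (4.66, 2.07 and 3.11%), against 2.46, 1.89 and 2.97%.

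The shared place with the highest sham enrichment was the 5′ UTR of Zfp768, chr7:127344545-127345589, at 120 in sham and 33.2, 44.1 and 31.1 on days 3, 7 and 14. The injured lists lay close together, below sham, but the place was picked for its high sham value. Lower values in the other lists can follow from that choice alone, here and at other places named for a high sham value. The 3′ UTR of Zfp326, chr5:105910290-105915159, had 71.5, 51.6, 43.4 and 130 in the same order, highest on day 14. A 3′ UTR peak of Zfp941, chr7:140807449-140807837, had 69.5 in sham and 15.1, 11.1 and 18.7 after injury. That of Zfp57, chr17:37010158-37010635, had 45.8, 32.4, 25.6 and 20.6. The 5′ UTR peak of Zfp91 over the sequence shown above had 33.7 in sham, 30.5 on day 3 and 59.2 on day 7, while on day 14 it was listed as a pair of neighbouring peaks at 30.8 and 6.68. The start of Zfp146 had 10.8, 6.64, 5.95 and 29.9, and that of Zfp772 11.6, 4.48, 4.31 and 5.27. High ratios can rest on few input reads, whose number the lists do not give.

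**Figure D5:**
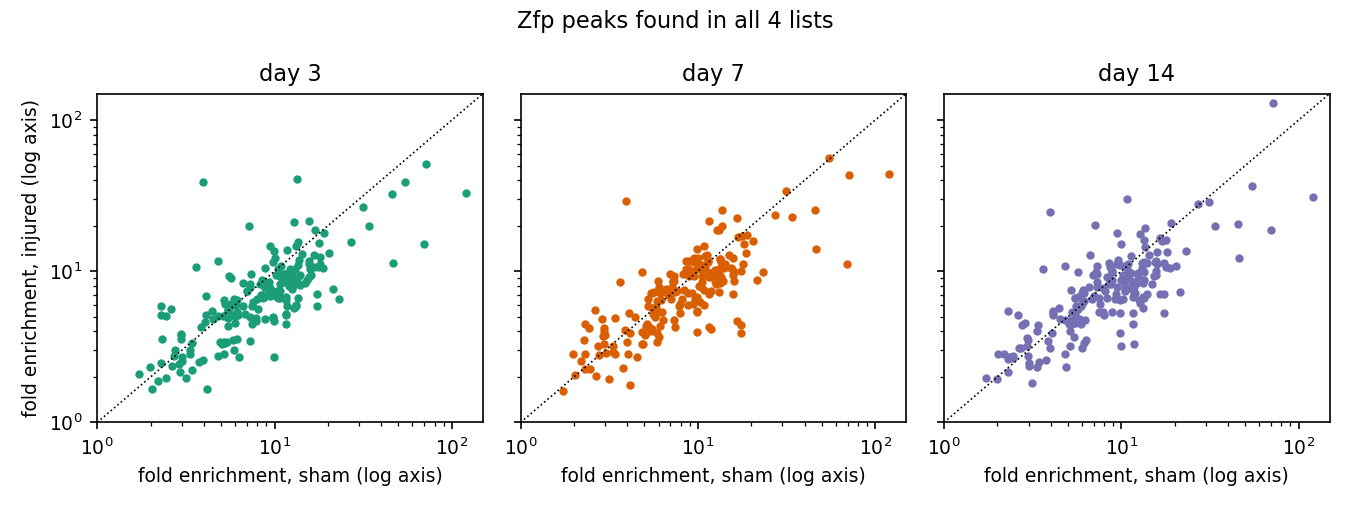
Fold enrichment of m6A over input at the 193 Zfp peaks shared by all 4 lists, sham on the horizontal and each injured day on the vertical axis, both on log scales, with a dotted line of equality. More points lie below the line than above it on each day (138 against 54 on day 3, 119 against 73 on day 7 and 123 against 70 on day 14). The same held over the 8012 shared places of all genes, which are not drawn. There the counts were 5624 against 2366 on day 3, 5333 against 2640 on day 7 and 5297 against 2690 on day 14.

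Along the gene, the middle of the median Zfp peak lay at 0.76, 0.76, 0.75 and 0.79 of the distance from the 5′ to the 3′ end of the gene, introns included, against 0.84 to 0.85 for all genes. The stretch from 0.75 of that distance on held 51.8, 51.0, 49.9 and 52.9% of the Zfp peaks, against 57.2, 56.5, 57.6 and 56.9% of all. The other strongest peaks were 94.2 in an exon of Zfp865 and 79.4 in the 5′ UTR of Zfp653 in sham, 66.8 in the latter and 41.9 in the 3′ UTR of Zfp865 on day 3, 81.7 in the 5′ UTR of Zfp358 on day 7, 56.4 in Zfp811 on day 7, and 53.6 and 52.0 in the 3′ UTR of Zfp865 on day 14. The Zfp653 peak was listed at 21.1 on day 7 and 14.5 on day 14, and the Zfp358 peak at 31.9 in sham, 30.5 on day 3 and 24.6 on day 14.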

How the data were processed

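Input RNA was analysed as FPKM per gene in 12 libraries, a unit given per the file headers. HISAT2, StringTie, edgeR and ChIPseeker are named per the submitters' processing notes, without versions; for the peak caller, the genome build and any pooling of replicates, the sources used here give nothing. Each deposited peak has a fold enrichment of enriched RNA over input, a ratio, and a score that is the base 10 logarithm of its p. Sequencing depth is unknown, so precision rests on the spread between libraries.

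Coordinates are those of the tables, with peak starts moved from 0-based to 1-based. Of the 193 genes, 192 overlapped the RefSeq gene of the same name on GRCm38.p6. Levels were tested as log2(FPKM + 0.5) for 15564 genes with a mean of at least 0.5, with limma 3.58.1 in R 4.3.3 (trend, 4 group means), Benjamini-Hochberg adjustment per contrast and a threshold of 0.05. The fit was tested on simulated data whose spread was taken from the 10 libraries other than the deviating ones. That test therefore does not show how the fit performs with the deviating libraries in. Fold changes of low genes are understated by the pseudocount.

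The genes, role lists and tests were chosen with earlier results of these data known. Named were genes that passed with or without the deviating libraries, the 8 highest, the 3 of smallest p per direction and day, the 8 with most peaks (11 with ties), the 3 strongest peaks per list, genes with a peak after injury only or in no list, role list members, the genes at the minimum and cluster neighbours. Zfp692, Zfp598, Zfp612, Zfp691, Zfp941, Zfp931, Zfp970 and genes with partial lists were named after their values were seen. Alternatives were other pseudocounts, filters, scalings and weights, a replicate block, libraries left out, averaged libraries, and other peak lists and overlaps. Values of single enriched libraries were not used here.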

Additional observations from a re-analysis of the deposited data

Results flagged for a closer look

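Both Zfp genes singled out here lay on opposite sides of sham on days 7 and 14 in every library. They came from a search of the 193 genes over each pair of injured days. The share of all genes that meet the same rule was not counted. The difference was not tested in data other than those that showed it, and neither passed for day 14 against day 7. Zfp592, a partner in a zinc finger chromatin complex, measured 4.08, 4.24 and 4.11 FPKM in sham, 3.78, 4.00 and 3.57 on day 7 and 4.39, 4.52 and 4.33 on day 14. Day 14 minus day 7 was 0.198 on the log2 scale (limma adjusted p = 0.78), and 0.16 without the deviating libraries (limma adjusted p = 0.20). Zfp950 measured 3.21, 3.06 and 3.10 in sham, 3.23, 3.22 and 3.95 on day 7 and 2.95, 2.99 and 2.94 on day 14. Day 7 minus day 14 was 0.197 on the log2 scale (limma adjusted p = 0.78), and the day 7 value of 3.95 came from library 3, which stood apart from the rest. Without the deviating libraries day 14 minus day 7 was -0.11 (limma adjusted p = 0.43).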

How the results depend on the processing

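With all 12 libraries no Zfp gene passed in any contrast. The count stayed at 0 under other pseudocounts, filters and scalings, in fits of 2 groups, with averaged libraries and without any single library. With array weights it moved to 5 of the 193 on day 3 and 3 on day 14. Of all 15564 genes, 419 passed higher and 280 lower on day 3 in that setting, and 235 and 244 on day 14. Without both deviating libraries it was 4 on day 3 (2.07%, all genes 7.07%) and 3 on day 14 (1.55%, all genes 4.71%). It was 1 there for day 14 against day 7 (0.518%, all genes 2.69%). Of 534 values of named genes under alternatives, 511 kept their direction and side of the threshold, 16 newly passed and 7 changed sign. None of the named values passed with all 12 libraries, so keeping a side meant not passing again. Some genes were named because they passed without both deviating libraries, so those passes among the 16 were fixed by the choice. The tally is therefore no measure of how firm the changes are. Zfp579 on day 3 ranged from -0.36 to 0.17 when 1 library was left out and was 0.15 with averaged libraries; Zfp651 for day 14 against day 7 ranged from -0.15 to 0.019 and was 0.012. Both have a deviating library on the other side of the compared group from its mates. Under a reciprocal overlap of 80%, 66 Zfp genes (34.2%, all genes 30.6%) had a shared peak in all lists, against 132 (68.4%, all genes 52.3%) at 50%. An overlap of exonic blocks, chosen after seeing the data, gave 138 (71.5%, all genes 59.5%).

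Deviations of same-numbered libraries from their group means correlated between -0.105 and 0.793. Libraries of unlike number were not compared, and both deviating libraries carry number 3. Whether replicate numbers pair the libraries is therefore not decided. With the replicate block, 0 Zfp genes passed in each contrast. Depth and input reads per peak are unknown, which limits all ratios.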
